A study of Mus musculus with 12 samples.

Results

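Aspartate added to L929 cells that had received transfected DNA and AOA was examined by setting the 3 HT-DNA+AOA+Asp libraries against the 3 HT-DNA+AOA libraries, so 6 of the 12 libraries of the study, across all 14694 genes with enough reads to be tested. L929 is an established mouse fibroblast line, here wild type, and the RNA was total RNA. The HT-DNA+AOA cells were held for 1 h with an agent that the design text writes as A, at 0.5 mM, and were then stimulated with HT-DNA for 6 h. The HT-DNA+AOA+Asp cells had the same treatment with 20 mM Asp present. The other groups, which give reference levels and also enter the estimate of the spread, were 3 mock libraries and 3 libraries of cells given HT-DNA alone for 6 h. HT-DNA was delivered with Lipofectamine 2000. The labels do not spell out HT-DNA, AOA or Asp, names commonly used for herring testis DNA, aminooxyacetate and aspartate. No group had Asp without AOA, or AOA without HT-DNA, so an action of Asp or of AOA alone cannot be told apart from one that needs the other agents. Nothing in the labels says that replicates came from separate cultures, so p-values measure only the spread between these libraries, which may be technical.

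Double-stranded DNA in the cytosol is sensed by cGAS, whose product activates STING. STING then drives the kinase TBK1 and the factors IRF3 and NF-kB, which turn on interferons, interferon-stimulated genes and inflammatory chemokines. Aminooxyacetate inhibits aminotransferases, enzymes that use pyridoxal phosphate, among them the aspartate aminotransferases GOT1 and GOT2. These move amino groups between glutamate and aspartate and serve the malate-aspartate shuttle. Aspartate is also a building block of asparagine, purines and pyrimidines.

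Promoters of genes that fell under Asp are shown first, because the interferon-stimulated and NF-kB target genes moved together. The windows come from RefSeq, build GRCm38.p6, and each held 250 bases before to 50 after the gene's start. Both strands were searched for TTTC, any 2 bases and TTTC, a form of the interferon-stimulated response element (ISRE), and for GGGA, any 4 bases and CC, a form of the NF-kB site. Capitals mark matches on either strand, overlapping matches run together, and every sequence is written 5′ to 3′ on the gene's own strand. The ISRE letters stand in Cxcl10 (chr5:92349053-92349139, minus strand), Ifit1 (chr19:34640745-34640853, plus strand) and Isg15 (chr4:156200835-156200936, minus strand).
Cxcl10, ISRE: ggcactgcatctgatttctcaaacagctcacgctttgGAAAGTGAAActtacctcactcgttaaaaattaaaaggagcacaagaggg
Ifit1, ISRE: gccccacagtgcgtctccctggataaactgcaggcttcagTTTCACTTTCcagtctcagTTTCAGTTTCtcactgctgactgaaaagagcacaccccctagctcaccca
Isg15, ISRE: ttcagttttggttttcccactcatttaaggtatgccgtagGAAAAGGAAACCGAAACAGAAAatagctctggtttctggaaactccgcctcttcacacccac
The NF-kB letters stand in Cxcl10 (chr5:92348943-92349052, minus strand), Cxcl1 (chr5:90891115-90891224, plus strand) and Cxcl2 (chr5:90903762-90903852, plus strand).
Cxcl10, NF-kB: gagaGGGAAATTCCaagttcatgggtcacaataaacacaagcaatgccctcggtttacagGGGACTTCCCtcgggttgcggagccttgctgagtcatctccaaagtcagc
Cxcl1, NF-kB: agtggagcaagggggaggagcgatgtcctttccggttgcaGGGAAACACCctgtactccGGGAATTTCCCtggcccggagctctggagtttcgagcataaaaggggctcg
Cxcl2, NF-kB: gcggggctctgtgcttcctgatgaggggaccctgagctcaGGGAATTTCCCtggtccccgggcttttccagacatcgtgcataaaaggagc
The Cxcl1 and Cxcl2 windows share the run of letters GGGAATTTCCC, and the Isg15 window holds 3 overlapping ISRE matches. No ISRE match was found in the windows of Irf7 or Ifi44, and no NF-kB match in that of Lcn2. Ccl5, Usp18 and Ccl2 had no entry.

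Many genes differed with Asp, most of them by small amounts. With edgeR's quasi-likelihood test at an adjusted p under 0.05, 4164 of 14694 genes (28.3%) were higher and 3873 (26.4%) were lower in HT-DNA+AOA+Asp than in HT-DNA+AOA libraries, 8037 (54.7%) in all. At least 2-fold differences were fewer, 494 genes higher (3.36%) and 700 lower (4.76%). Of all genes, 70.3% had a log2 fold change within 0.5 of 0, and the median absolute log2 fold change was 0.29. The share of genes called rose with level, from 21.8% of the 2059 genes below 1 CPM to 70.4% of the 2243 genes at 100 CPM or above. Libraries held 20466001 to 24380878 estimated counts with Asp and 20876925 to 27309291 without it. CPM are counts divided by the TMM-scaled library total in the usual way. They are not corrected for gene length, so they compare libraries and not genes.

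The same libraries can be set beside HT-DNA alone. HT-DNA+AOA differed from HT-DNA at 7646 genes (52%), and HT-DNA+AOA+Asp differed from HT-DNA at 2720 (18.5%), of which 1523 (10.4%) were higher and 1197 (8.15%) lower. At least 2-fold differences from HT-DNA were seen at 711 genes higher (4.84%) and 429 lower (2.92%) without Asp, and at 52 higher (0.354%) and 31 lower (0.211%) with Asp. On the first principal component, which held 45.9% of the variance, HT-DNA+AOA libraries lay at 49.6 to 55.8, those with Asp at -13.5 to -12.5, HT-DNA alone at -8.14 to -6.57 and mock at -34.3 to -32.7. The third, with 8.22% of the variance, set the Asp libraries (16.8 to 22.8) apart from HT-DNA alone (-22.8 to -11.2). The 3 comparisons share libraries, so their values are given side by side without a measure of likeness. Replicate 1 of HT-DNA+AOA lay apart from the other replicates of its group for several inducible genes, among them Cxcl1 and Cebpb, and for several of these the value without it is given.

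**Figure D1:**
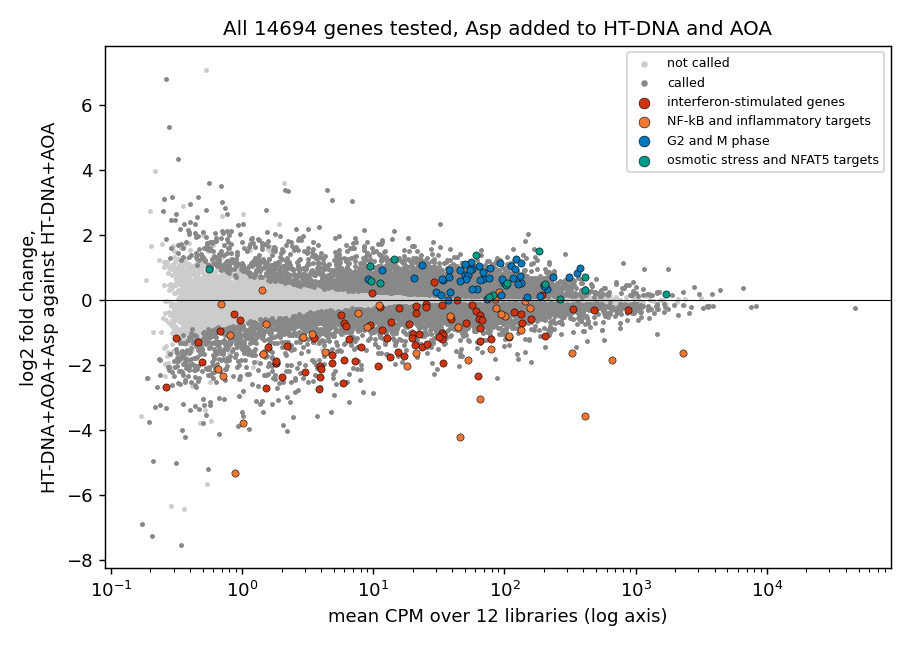
Log2 fold change of each gene tested, HT-DNA+AOA+Asp against HT-DNA+AOA, against its mean CPM over the 12 libraries on a log axis. Dark grey points passed an adjusted p under 0.05 and light grey points did not. Colours mark 4 gene lists. Nearly all interferon-stimulated and NF-kB points lie below 0, and nearly all G2 and M phase and osmotic stress points above it.

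Interferon-stimulated genes, which encode antiviral effectors and chemokines, were lower with Asp almost throughout the list. Of 81 members tested, 72 fell (88.9%, against 26.4% of all genes), 45 of them at least 2-fold, and 2 rose. The median log2 fold change was -1.12, against -0.00 over all genes. For the same members the median was 0.91 for HT-DNA+AOA against HT-DNA and -0.13 for HT-DNA+AOA+Asp against HT-DNA. In the last comparison 1 was higher (1.23%, against 10.4% of all genes) and 10 were lower (12.3%, against 8.15%). Another 15 members were too low to test. Their summed counts were 58, 83 and 62 in HT-DNA+AOA and 42, 19 and 23 with Asp.

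Cxcl10, a chemokine that attracts T cells, had 155, 188 and 200 CPM in the HT-DNA+AOA libraries and 35.5, 35.3 and 36.4 with Asp. HT-DNA alone gave 36.9, 34.2 and 35.7 CPM and mock 0.178, 0.13 and 0.155. The Asp libraries were thus far below the HT-DNA+AOA libraries and overlapped those of HT-DNA alone. This was a 5.06-fold fall, with a log2 fold change of -2.34 ± 0.07 (SE, edgeR adjusted p = 4.2e-15). Ccl5, a chemokine for T cells and monocytes, had 87.0, 93.7 and 86.1 CPM without and 24.3, 23.0 and 22.5 with Asp, against 25.7, 24.6 and 23.7 under HT-DNA alone. Ccl5 had a log2 fold change of -1.94 ± 0.07 (SE, edgeR adjusted p = 3.7e-15).

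Ifit1, which binds viral RNA that lacks the host cap, had 135, 145 and 132 CPM without and 56.7, 52.3 and 62.7 with Asp. It fell by 1.26 ± 0.06 on the log2 scale (SE, edgeR adjusted p = 1.15e-12). A small protein that is joined to others like ubiquitin is made from Isg15, which had 67.2, 61.2 and 65.7 CPM without and 32.1, 28.7 and 30.7 with Asp, and the 37.3, 41.8 and 35.6 CPM of HT-DNA alone lay above the Asp libraries. Isg15 changed by -1.08 ± 0.07 on the log2 scale under Asp (SE, edgeR adjusted p = 4.2e-11) and -0.33 ± 0.07 for HT-DNA+AOA+Asp against HT-DNA (edgeR adjusted p = 0.00339). Isg15 was 1 of the 10 members below HT-DNA alone. Reads of near-identical family members such as the Ifit, Oas, Apol9, Gbp and H2 genes may have been divided among copies by the authors' counting.

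Other members included regulators of the response and the 2 genes that rose. Irf7, a transcription factor that amplifies interferon production, had 11.1, 13.7 and 13.5 CPM without and 2.95, 3.79 and 3.88 with Asp. HT-DNA alone, at 4.11, 3.85 and 3.95 CPM, lay within the mock range of 3.02 to 4.65, and the Asp libraries overlapped both groups. Irf7 fell by 1.85 ± 0.15 on the log2 scale under Asp (SE, edgeR adjusted p = 5.9e-10). Usp18, which removes ISG15 from proteins and damps interferon receptor signalling, had 15.5, 16.1 and 15.6 CPM without and 2.15, 3.49 and 2.49 with Asp, with a log2 fold change of -2.54. Ifi44, an interferon-stimulated gene, had the largest fall of the list, from 9.37, 11.4 and 13.1 CPM to 1.87, 1.62 and 1.55, a log2 fold change of -2.75 ± 0.20. Mov10, an RNA helicase, rose, with 22.6, 20.3 and 20.8 CPM without and 30.6, 32.2 and 31.0 with Asp (log2 fold change 0.56). Lgals3bp, a secreted glycoprotein, rose by 0.16 on the log2 scale, and that call was lost without replicate 3 of HT-DNA+AOA (0.10, edgeR adjusted p = 0.137) and without replicate 3 of the Asp group (0.13, adjusted p = 0.0803).

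**Figure D2:**
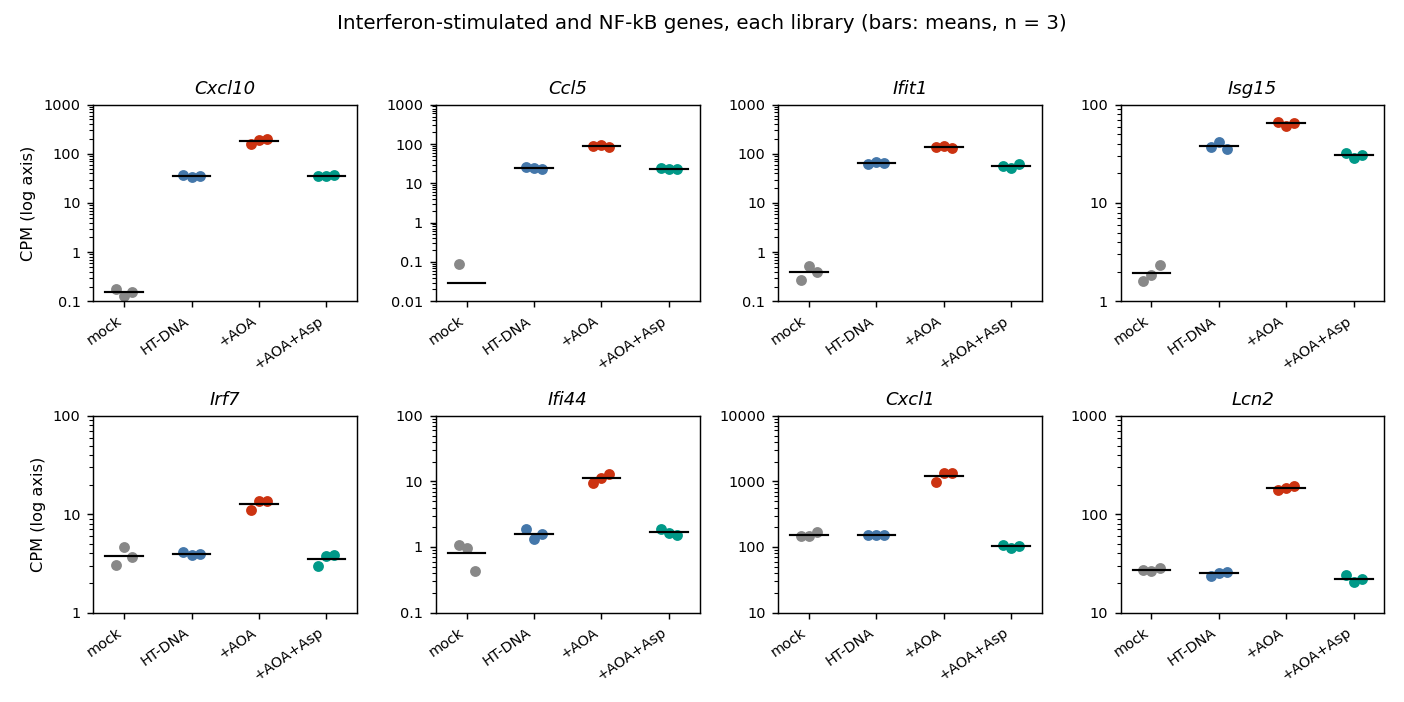
CPM of 8 genes in each library on log axes, with a bar at each group mean (n = 3). For each gene the 3 HT-DNA+AOA libraries stand above all 3 libraries with Asp. The 2 mock libraries of Ccl5 with no count cannot be drawn on a log axis.

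Interferon ligands could not be compared. None of 11 type I and III interferon genes passed the filter on low counts. Ifnb1 had 0, 1 and 1 counts in HT-DNA+AOA libraries and none with Asp. The interferon receptor and JAK-STAT list had 12 of 18 members lower (66.7%, against 26.4% of all genes) and 3 higher (16.7%, against 28.3%). Usp18 is in this list and in the interferon-stimulated list. Irf9, a subunit of the interferon-activated factor, fell by 1.44 on the log2 scale, while Stat2, another subunit, had 51.0, 53.7 and 49.2 CPM without and 52.2, 47.7 and 54.1 with Asp. Those Stat2 libraries overlap, and the difference was 0.00 ± 0.06 on the log2 scale (SE, edgeR adjusted p = 0.975). Tyk2, a receptor-bound kinase, had 19.0, 16.6 and 16.6 CPM without and 33.0, 32.3 and 34.1 with Asp (log2 fold change 0.93). Ifnar1, a receptor chain, rose by 0.55 on the same scale.

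Members of the nucleic acid sensing list moved in both directions. The induced RNA sensors Ifih1 and Ddx58 fell by 1.60 and 1.35 on the log2 scale, and Trex1, a nuclease that degrades cytosolic DNA, fell by 1.40. Cgas, the DNA sensor, had 9.22, 9.37 and 8.98 CPM without and 5.28, 5.85 and 6.12 with Asp. The groups did not overlap and the log2 fold change was -0.67 ± 0.13 (SE, edgeR adjusted p = 0.000146). The next step of the pathway, Sting1, had 3.99, 4.69 and 4.60 CPM without and 5.99, 5.65 and 5.96 with Asp, and rose by 0.40 ± 0.12. Tbk1, the kinase below it, rose by 0.60 and Mavs, the adaptor of the RNA sensors, by 0.63. In all, 11 of 23 members fell (47.8%, against 26.4% of all genes) and 6 rose (26.1%, against 28.3%).

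NF-kB and inflammatory target genes included the largest falls among the lists. Of 36 members tested, 30 fell (83.3%, against 26.4% of all genes), 20 of them at least 2-fold, and Ptges, a prostaglandin synthase, rose by 0.25 on the log2 scale. The median log2 fold change was -1.10. The lowest value, -5.33, was that of Ccl20, a lymphocyte chemokine with 42, 106 and 77 counts without and 1, 1 and 3 with Asp. Of the groups compared, only HT-DNA+AOA reached the filter's minimum count of 10 for Ccl20. The size of that fall rests on counts near the floor and is loosely set. Medians of the same members were 0.93 for HT-DNA+AOA against HT-DNA and -0.16 for HT-DNA+AOA+Asp against HT-DNA. In the last comparison 11 were lower (30.6%, against 8.15% of all genes) and 1 was higher (2.78%, against 10.4%). Without replicate 1 of HT-DNA+AOA, 30 members again fell.

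Cxcl1, a neutrophil chemokine, had 992, 1360 and 1340 CPM without and 109, 97.8 and 105 with Asp. HT-DNA alone gave 154, 151 and 153 CPM and mock 147, 148 and 167, so that the Asp libraries lay below all 9 others. The fall was 11.9-fold, a log2 fold change of -3.57 ± 0.12 (SE, edgeR adjusted p = 1.86e-09), and -3.70 without replicate 1 of HT-DNA+AOA. Cxcl2, its close relative, had 119, 175 and 172 CPM without and 8.56, 8.5 and 8.25 with Asp, and the Asp libraries overlapped the 10.2, 10.8 and 8.4 CPM of HT-DNA alone. This was an 18.5-fold fall, a log2 fold change of -4.21, and of -4.36 without replicate 1 of HT-DNA+AOA. Lcn2, which sequesters bacterial iron carriers, had 178, 183 and 192 CPM without and 24.1, 20.3 and 21.8 with Asp (log2 fold change -3.06 ± 0.06, edgeR adjusted p = 2.55e-19). Ccl2, a monocyte chemokine, had 1350, 1470 and 1630 CPM without and 418, 397 and 429 with Asp (log2 fold change -1.84).

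An inhibitor and a subunit of NF-kB also fell. Nfkbia, which encodes the inhibitor IkB-alpha, had 188, 182 and 189 CPM without and 85.2, 83.6 and 89.7 with Asp (log2 fold change -1.11). Relb, an NF-kB subunit, had 39.2, 40.1 and 41.8 CPM without and 14, 11.6 and 13.4 with Asp, below the 20.6, 17.5 and 20.5 of HT-DNA alone. Rela, the main activating subunit, had a log2 fold change of 0.03 that did not pass the test. Of 14 macrophage and leukocyte markers, 11 were too low to test, among them Ptprc with at most 1 count in any library and Adgre1 with none. Cd68, a lysosomal protein, was well expressed, with 351, 359 and 318 CPM without and 255, 244 and 251 with Asp, and fell by 0.46 on the log2 scale. The part of such cells in the results was not tested.

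Searched over the whole lists, the ISRE form was found in 33 of the 65 interferon-stimulated genes with an entry (50.8%), against 3.99% of 27025 genes. Members with it had a median log2 fold change of -1.21 (n = 33, range -2.378 to 0.003). Members without it had one of -0.71 (n = 32, range -2.750 to 0.562). The NF-kB form was found in 16 of 29 NF-kB target genes (55.2%), against 22.9% of the 27025 genes. The medians were -1.12 with it (n = 16, range -5.327 to 0.030) and -0.83 without (n = 13, range -3.059 to 0.318). In both lists the ranges overlapped widely, and whether the fall depends on the motif was not tested. Shares over all tested or all called genes are void, because fewer than 80% of those genes had an entry. The 27025 genes include many that were not expressed here, so they are not a like background for lists of expressed genes.

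Genes of the ATF4 pathway, which answers amino acid shortage and other stresses through phosphorylation of the translation factor eIF2, fell in most cases, by smaller amounts. Of 45 members tested, 31 fell (68.9%, against 26.4% of all genes), 7 of them at least 2-fold, and 6 rose. The median log2 fold change was -0.26. Against HT-DNA alone, 17 of the 45 members were higher with AOA and Asp, against 10.4% of all genes, and 2 were lower. Ddit3, which encodes the stress factor CHOP, had 393, 400 and 400 CPM without and 194, 182 and 198 with Asp, and 106, 113 and 106 under HT-DNA alone. The Asp libraries lay between those groups without overlap. Mock, at 159, 152 and 152 CPM, lay above HT-DNA alone and below the Asp libraries. Ddit3 had a log2 fold change of -1.05 ± 0.04 under Asp (SE, edgeR adjusted p = 1.75e-14) and 0.82 ± 0.04 for HT-DNA+AOA+Asp against HT-DNA (edgeR adjusted p = 1.01e-10). A second entry of the table also carries the symbol Ddit3, with at most 127 counts in a library, so its reads may be divided.

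Ppp1r15a, whose product GADD34 reverses eIF2 phosphorylation, had 257, 362 and 325 CPM without and 102, 100 and 108 with Asp, again above the 75.6, 74.6 and 65.3 of HT-DNA alone. Mock, at 80.5, 88.1 and 91.2 CPM, again lay between HT-DNA alone and the Asp libraries. Ppp1r15a fell by 1.61 on the log2 scale under Asp, and by 1.73 without replicate 1 of HT-DNA+AOA. Gadd45a, a growth arrest gene, showed the same order, with 154, 210 and 214 CPM without, 90.8, 79.1 and 82.3 with Asp, and 45.7, 44.9 and 41.7 under HT-DNA alone. Mock, at 83.7, 81.3 and 91.5 CPM, overlapped the Asp libraries of this gene. Gadd45a fell by 1.2 under Asp, and by 1.33 without the same replicate. Cebpb, a transcription factor of stress and inflammation, varied widely between replicates, with 98.7, 273 and 208 CPM without and 45.8, 31.8 and 32.8 with Asp. The Cebpb log2 fold change was -2.40 ± 0.37 (SE, edgeR adjusted p = 0.000552) and -2.71 without replicate 1 of HT-DNA+AOA. Atf4 itself had 660, 653 and 651 CPM without and 725, 698 and 685 with Asp, a log2 fold change of 0.10 ± 0.05 (SE, edgeR adjusted p = 0.0644). That value passed with library size alone as the scale (0.16, adjusted p = 0.00272) and with the fit on both groups alone (adjusted p = 0.0295).

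Members that rose included transporters. Slc7a11, the cystine importer, had 11.3, 15.1 and 13.4 CPM without and 41.8, 41.8 and 40.8 with Asp, above the 31.1, 30.9 and 34.4 of HT-DNA alone. Mock, at 43.5, 42.2 and 38.3 CPM, overlapped the Asp libraries. Slc7a11 rose by 1.64 ± 0.08 on the log2 scale (SE, edgeR adjusted p = 6.14e-13). Slc38a2, a neutral amino acid transporter, rose by 0.69, and Atf5, a factor related to ATF4, by 0.67. Slc6a9, a glycine transporter, had 75.0, 76.1 and 76.8 CPM without and 90.5, 89.7 and 88.7 with Asp, and 49.4, 49.4 and 54.3 under HT-DNA alone.

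Genes that make or use aspartate were called about as often as all genes. Of 26 members tested, 8 fell (30.8%, against 26.4% of all genes) and 6 rose (23.1%, against 28.3%), none by as much as 2-fold, and the median log2 fold change was 0.05. Got1, the cytosolic aspartate aminotransferase, had 170, 162 and 174 CPM without and 128, 125 and 132 with Asp, and HT-DNA alone gave 139, 135 and 132. It fell by 0.39 ± 0.05 on the log2 scale (SE, edgeR adjusted p = 2.1e-07). Got2, the mitochondrial enzyme, fell by 0.18 and Asns, asparagine synthetase, by 0.19. The mitochondrial aspartate-glutamate carriers rose. Slc25a13 had 27.4, 26.6 and 27.9 CPM without and 49.9, 51.1 and 49.5 with Asp (log2 fold change 0.88), and Slc25a12 rose by 0.64. Slc1a3, a plasma membrane transporter of aspartate and glutamate, had at most 2 counts in any library.

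Of 22 other pyridoxal phosphate enzymes 8 fell (36.4%, against 26.4% of all genes) and 6 rose, a share near the 28.3% of all genes. Odc1, the first enzyme of polyamine synthesis, fell by 1.06 on the log2 scale and Kyat1, a kynurenine aminotransferase, by 0.70. Alas1, the first enzyme of haem synthesis, had 24.4, 21.6 and 20.5 CPM without and 48.0, 48.8 and 49.9 with Asp (log2 fold change 1.15), above the 35, 35 and 34.5 of HT-DNA alone. In the list of amino acid transporters 9 of 21 fell (42.9%) and 7 rose (33.3%). Slc38a1, a glutamine transporter, fell by 1.33 on the log2 scale. Among 35 genes of nucleotide synthesis 12 fell (34.3%) and 7 rose (20%), with a median of -0.05. Umps, which makes uridine monophosphate, fell by 0.65, and Cad, which starts pyrimidine synthesis from aspartate, had a log2 fold change of -0.02 that did not pass.

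Mitosis genes rose as a group. Of 52 G2 and M phase members, 46 rose (88.5%, against 28.3% of all genes), none fell, and 8 rose at least 2-fold. The median log2 fold change was 0.67, beside -0.76 for HT-DNA+AOA against HT-DNA and -0.08 for HT-DNA+AOA+Asp against HT-DNA. Plk1, a kinase of mitotic entry and spindle assembly, had 56.4, 58.7 and 54.1 CPM without and 140, 134 and 129 with Asp, and 171, 176 and 168 under HT-DNA alone. Plk1 had a log2 fold change of 1.25 ± 0.05 under Asp (SE, edgeR adjusted p = 9.4e-15) and -0.36 ± 0.05 against HT-DNA (adjusted p = 2.3e-05). Foxm1, a transcription factor of mitotic genes, had 87.0, 86.8 and 85.6 CPM without and 192, 193 and 190 with Asp, overlapping the 185, 193 and 188 CPM of HT-DNA alone. Cdk1, the mitotic cyclin-dependent kinase, had a log2 fold change of 0.10 that did not pass, and was lower than under HT-DNA alone by 0.41. In bulk RNA, fewer cells of a kind, such as cells in mitosis, and less RNA per cell cannot be told apart. In this list, as in the osmotic stress list and for rises of ribosomal proteins below, the 0 calls in the opposite direction were also 0 at an unadjusted p under 0.05 and by DESeq2 and limma-voom.

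Of 38 S phase and replication genes 16 rose (42.1%, against 28.3% of all genes) and 10 fell (26.3%, against 26.4%), with a median log2 fold change of 0.09. E2f2, an activator of S phase genes, rose by 1.64 on the log2 scale, and Pcna, the sliding clamp of DNA polymerases, by 0.43. Ccne2, a G1/S cyclin, had 35.6, 38.9 and 36.1 CPM without and 25.3, 24.4 and 23.9 with Asp, and fell by 0.59. The p53 target list had 12 of 29 lower (41.4%, against 26.4%) and 7 higher (24.1%, against 28.3%). Cdkn1a, which encodes the cell cycle inhibitor p21, fell by 0.98 on the log2 scale, Fas, a death receptor, fell by 1.99, and Ccng2, a cyclin linked to arrest, rose by 1.28.

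**Figure D3:**
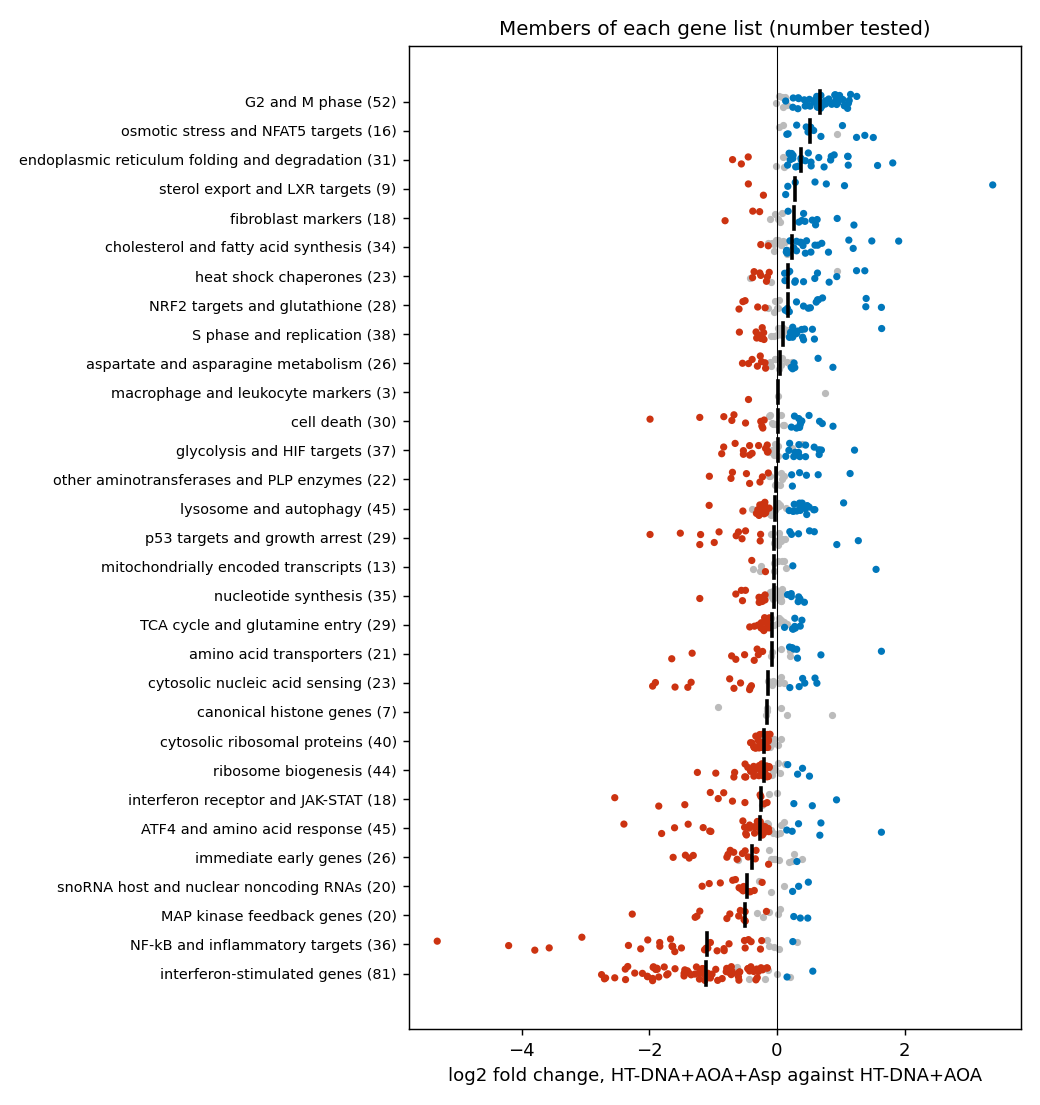
Log2 fold change of each tested member, HT-DNA+AOA+Asp against HT-DNA+AOA, in the 31 lists with at least 3 members tested, ordered by median (black bar). Blue points rose and red points fell at an adjusted p under 0.05, and grey points did not pass. The number tested stands after each list, and vertical scatter within a row carries no value. G2 and M phase genes have the highest median (0.67) and interferon-stimulated genes the lowest (-1.12).

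Endoplasmic reticulum genes rose. Of 31 members for folding and degradation, 25 rose (80.6%, against 28.3% of all genes), 5 at least 2-fold, and 3 fell. Herpud1, which helps degrade misfolded proteins, had 63.0, 54.3 and 49.6 CPM without and 202, 191 and 193 with Asp, above all 9 other libraries, of which the next highest was HT-DNA alone at 180. Herpud1 rose by 1.82 ± 0.06 on the log2 scale (SE, edgeR adjusted p = 4.33e-15). Its promoter is shown because it carries the core of the endoplasmic reticulum stress element, CCACG (chr8:94386323-94386427, plus strand). Of 2 matches before the start, capitals mark the 1 in the stretch printed.
Herpud1, core: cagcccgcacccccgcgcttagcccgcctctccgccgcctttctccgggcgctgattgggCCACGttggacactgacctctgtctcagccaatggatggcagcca
These 5 letters are common, being in the promoters of 35.5% of the 27025 genes and in 23 of the 27 members with an entry (85.2%). The 27025 genes are again not a like background for expressed genes, so the 2 shares do not measure an enrichment. Syvn1, the ubiquitin ligase of the degradation pathway, rose by 1.58 on the log2 scale. Hspa5, the chaperone BiP, had 3890, 3530 and 3750 CPM without and 4710, 4470 and 4510 with Asp (log2 fold change 0.29), and stayed below the 5430, 5320 and 5190 of HT-DNA alone. Ern1, which encodes the stress sensor IRE1-alpha, fell by 0.56, and Eif2ak3, which encodes the stress sensor and eIF2 kinase PERK, rose by 1.12.

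Sterol and fatty acid synthesis genes rose in part. Of 34 members, 21 rose (61.8%, against 28.3% of all genes), 2 fell, and the median log2 fold change was 0.23. Against HT-DNA alone 21 of the 34 were lower with AOA and Asp, against 8.15% of all genes, and 1 was higher. Mvd, an enzyme of the mevalonate pathway, had 6.68, 6.19 and 7.99 CPM without and 18.6, 18.0 and 21.6 with Asp, and 28.5, 27.7 and 25.7 under HT-DNA alone. The Asp libraries lay between those groups. Mvd rose by 1.49 ± 0.10 on the log2 scale (SE, edgeR adjusted p = 5.85e-11). Hmgcs1, the HMG-CoA synthase of the same pathway, had 25.9, 25.4 and 25.2 CPM without and 44.0, 45.8 and 44.1 with Asp, and 51.8, 60 and 57.5 under HT-DNA alone. Its promoter holds the letters TCAC, any base and CCAC of a sterol element, found in 1.44% of the promoters (chr13:119690174-119690262, plus strand, match in capitals).
Hmgcs1, sterol element: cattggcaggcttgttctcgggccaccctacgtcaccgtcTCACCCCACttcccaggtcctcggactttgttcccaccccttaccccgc
Among the 26 of 34 members with an entry, too few for a share, Hmgcs1 was the 1 member with a match, and none was found in the window of Mvd.

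Some enzymes of the pathway did not pass the test. Idi1, which isomerises isopentenyl diphosphate, had 48.3, 54.2 and 51.6 CPM without and 50.6, 54.2 and 51.0 with Asp, against 73.4, 74.0 and 77.6 under HT-DNA alone. Idi1 had a log2 fold change of 0.01 ± 0.05 under Asp (SE, edgeR adjusted p = 0.847) and -0.53 ± 0.05 against HT-DNA (adjusted p = 1.3e-06). Fdps, which makes farnesyl diphosphate, had values of -0.04 and -0.34 in the same comparisons, and Pmvk, phosphomevalonate kinase, values of -0.04 and -0.33. Lpin1, a phosphatidate phosphatase and coregulator of lipid genes, had 4.98, 4.38 and 4.15 CPM without and 13.5, 20.2 and 16.9 with Asp, above HT-DNA alone at 10.8, 11.9 and 11.2. Its mock level was higher, at 40.6 to 42.5 CPM. Abcg1, a cholesterol exporter, had 0.698, 0.423 and 0.632 CPM without and 6.17, 6.44 and 5.51 with Asp, a 10.4-fold difference (log2 fold change 3.38 ± 0.24, SE, edgeR adjusted p = 1.17e-10). Its level with Asp lay above the 2.43, 2.38 and 3.25 CPM of HT-DNA alone and below the 6.57, 8.17 and 10.6 of mock. Abca1, the other main cholesterol exporter, rose by 1.06 on the log2 scale.

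**Figure D4:**
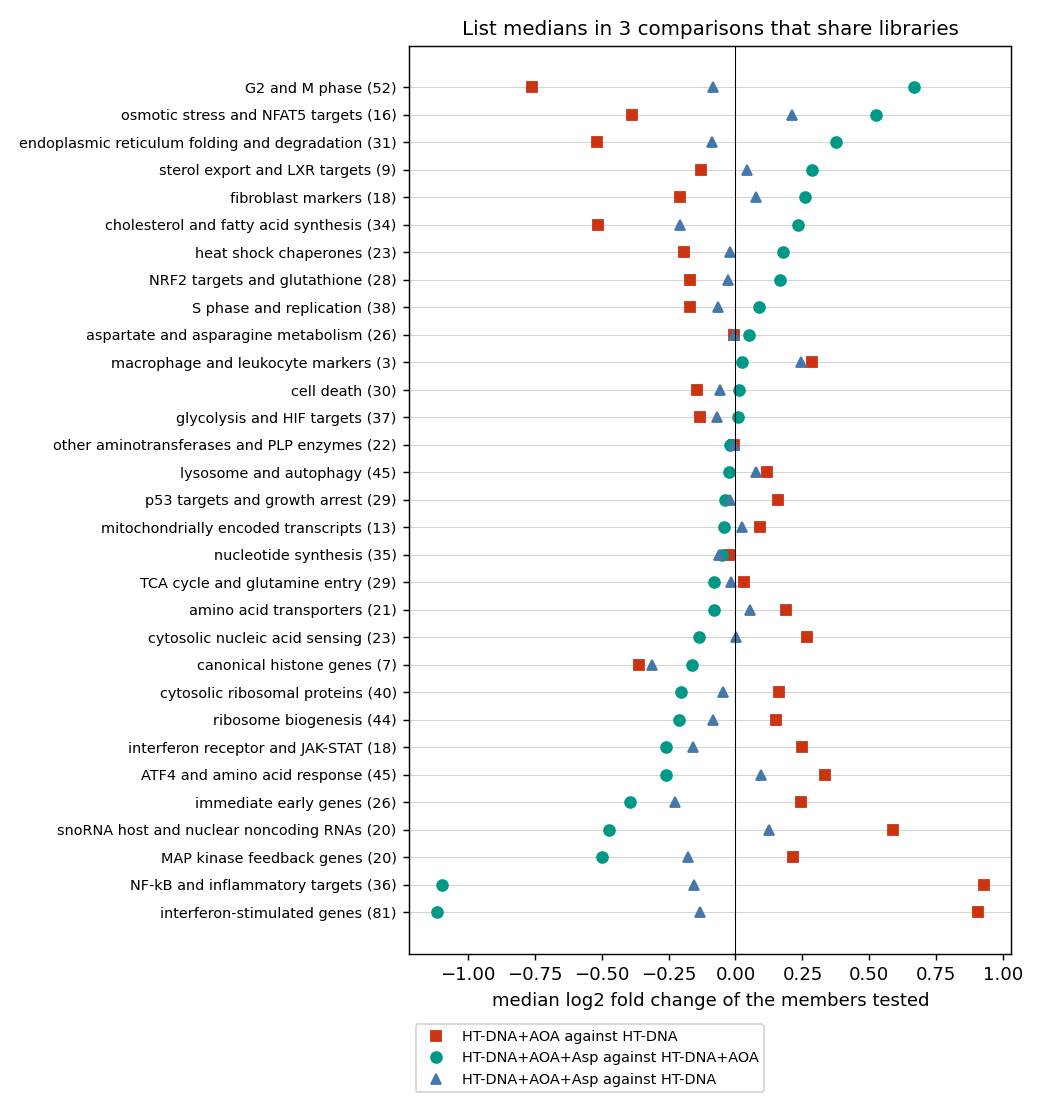
Median log2 fold change of the tested members of 31 lists in 3 comparisons: HT-DNA+AOA against HT-DNA (squares), HT-DNA+AOA+Asp against HT-DNA+AOA (circles) and HT-DNA+AOA+Asp against HT-DNA (triangles). The comparisons share libraries. Interferon-stimulated genes have medians of 0.91, -1.12 and -0.13, and osmotic stress genes medians of -0.39, 0.52 and 0.21.

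Genes of the osmotic stress response, controlled by the factor NFAT5 and coding for osmolyte transporters and chaperones, rose, and several ended above HT-DNA alone. Of 16 members, 13 rose (81.2%, against 28.3% of all genes) and none fell. The median log2 fold change was 0.52. Against HT-DNA alone 6 of the 16 were higher with AOA and Asp, against 10.4% of all genes, and 1 was lower. Summed over the members, the Asp libraries had 3950 to 3990 CPM and overlapped mock at 3980 to 4170. HT-DNA alone had 3360 to 3640 and HT-DNA+AOA 3020 to 3160. Hspa4l, a chaperone cofactor induced by hypertonic medium, had 36.4, 33.5 and 32.9 CPM without and 86.6, 89.6 and 90.3 with Asp, and 39.2, 43.2 and 45.3 under HT-DNA alone. The Asp libraries lay above all 9 others, mock included at 70.5 to 79.1. The log2 fold change was 1.38 ± 0.06 under Asp (SE, edgeR adjusted p = 8.1e-14) and 1.06 ± 0.06 against HT-DNA (adjusted p = 1.79e-10).

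Slc5a3, the importer of the osmolyte inositol, had 98.5, 75.8 and 83.2 CPM without and 117, 129 and 122 with Asp, and 63.3, 68.5 and 68.7 under HT-DNA alone, while mock was higher at 138 to 150. It rose by 0.52 under Asp and was 0.88 above HT-DNA on the log2 scale. Aqp5, a water channel, had 87.9, 87.1 and 86.9 CPM without and 247, 251 and 249 with Asp, beside 225, 215 and 247 in mock. Its log2 fold change under Asp was 1.51 ± 0.05 (SE, edgeR adjusted p = 2.12e-15). Slc6a6, the taurine importer, had 369, 378 and 382 CPM without and 466, 475 and 458 with Asp, above all 9 others. Nfat5 itself had 91.5, 81.5 and 84.6 CPM without and 116, 120 and 117 with Asp, within the mock range of 95.1 to 131. Its log2 fold change was 0.46 ± 0.13 (SE, edgeR adjusted p = 0.0128), and the adjusted p was 0.0504 without replicate 2 of HT-DNA+AOA. Akr1b3, which makes the osmolyte sorbitol, had a log2 fold change of 0.03 that did not pass.

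MAP kinase feedback genes, which are induced by ERK signalling and restrain it, fell, and some ended below every other group. Of 20 members, 12 fell (60%, against 26.4% of all genes) and 3 rose, and 6 lay below all 9 other libraries. Over all genes, 277 (1.89%) were called lower and lay below all 9 others, and 405 (2.76%) were called higher and lay above them. Dusp6, an ERK phosphatase, had 33.4, 45.2 and 47.5 CPM without and 29.0, 27.2 and 28.8 with Asp, against 43.1, 42.4 and 43.1 under HT-DNA alone and 53.2 to 56.4 in mock. Its log2 fold change was -0.57 ± 0.09 (SE, edgeR adjusted p = 7.23e-05), and -0.02 for HT-DNA+AOA against HT-DNA (adjusted p = 0.85). Errfi1, an inhibitor of the EGF receptor, had 78.0, 101 and 106 CPM without and 58.2, 59.9 and 53.1 with Asp, against 90.1, 86.1 and 88.2 under HT-DNA alone. It fell by 0.74 ± 0.09, and by 0.86 without replicate 1 of HT-DNA+AOA.

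Phlda1, a gene induced by growth factors, had 39.4, 53.7 and 52.5 CPM without and 22.5, 21.4 and 19.3 with Asp, again below every other library. Dusp5, a nuclear ERK phosphatase, had 50.5, 72.9 and 73.2 CPM without and 15.6, 13.8 and 11.7 with Asp, a log2 fold change of -2.27 ± 0.17 (SE, edgeR adjusted p = 1.09e-06). Without replicate 1 of HT-DNA+AOA the Dusp5 value was -2.42, and that of Phlda1 moved from -1.21 to -1.34. The Spry2 and Spry4 genes, inhibitors of receptor signalling, fell by 0.52 and 0.79 on the log2 scale. Among immediate early genes, which are switched on without new protein synthesis, 15 of 26 fell (57.7%, against 26.4% of all genes) and 1 rose. Junb, a subunit of AP-1, had 39.1, 63.9 and 60.4 CPM without and 21.6, 23.3 and 21.2 with Asp, below HT-DNA alone at 38.3, 36.0 and 33.2. It fell by 1.31, and by 1.5 without replicate 1 of HT-DNA+AOA. Egr1, an early factor induced by ERK, was lower by 0.45 than in HT-DNA+AOA and by 1.2 than in HT-DNA alone. Myc fell by 1.44 on the log2 scale under Asp and had a value of 0.04 against HT-DNA.

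**Figure D5:**
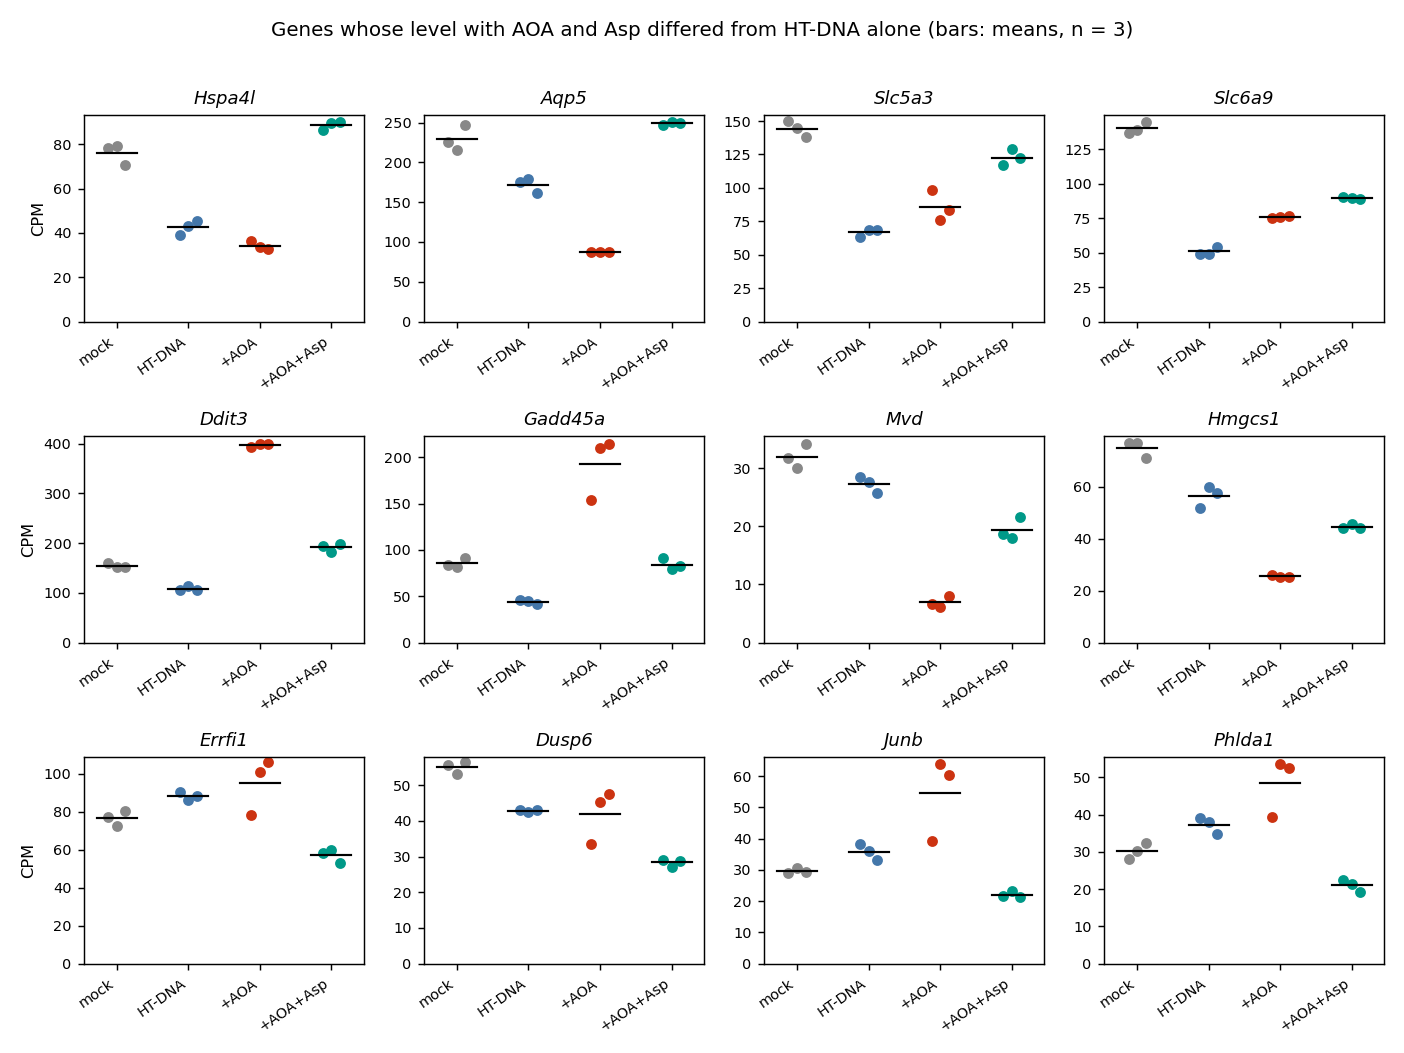
CPM of 12 genes in each library, axes from 0, with a bar at each group mean (n = 3). The genes were picked after their values were seen, as examples of a difference between HT-DNA+AOA+Asp and HT-DNA alone. Osmotic stress genes and the glycine transporter Slc6a9 (top row) lie above HT-DNA alone, Ddit3 and Gadd45a above and Mvd and Hmgcs1 below it (middle row), and Errfi1, Dusp6, Junb and Phlda1 below it (bottom row).

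The largest rises by fold were taken from called genes whose groups did not overlap, with at least 5 CPM in the higher group. Genes with a clone or number name as symbol were left out. After Abcg1 the largest rises were Slco4a1, an organic anion transporter, at 3.08 on the log2 scale and Ndrg4, a gene of the NDRG family, at 3.03. Slco4a1 had 0.648, 0.922 and 0.542 CPM without and 5.38, 6.39 and 6.53 with Asp, between HT-DNA alone at 1.92 to 2.74 and mock at 9.28 to 12.1. Ndrg4 likewise had 0.997, 0.845 and 1.72 CPM without and 9.45, 10.1 and 9.31 with Asp, above HT-DNA alone at 4.31 to 4.85 and below mock at 11.7 to 12.9. Map1a, a microtubule-associated protein, had 54.5, 44.6 and 44.8 CPM without and 188, 196 and 201 with Asp, above all 9 others. Its log2 fold change was 2.03 ± 0.06 (SE, edgeR adjusted p = 4.2e-15).

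The largest falls by the same limits, beside the chemokines Cxcl2 and Cxcl1, included Sspo, a secreted protein of the subcommissural organ, at -4.02 and Ptprt, a receptor phosphatase, at -3.85 on the log2 scale. Sspo had 7.37, 6.65 and 7.58 CPM without and 0.468, 0.442 and 0.408 with Asp. Abcb1a, a drug efflux pump, had 6.08, 7.45 and 8.13 CPM without and 0.982, 0.442 and 0.980 with Asp, overlapping HT-DNA alone at 0.799 to 1.45. Gvin2, a member of the family of large interferon-inducible GTPases, had 17.6, 18.7 and 17.5 CPM without and 2.20, 1.92 and 1.96 with Asp, below all 9 others. Stk40, a kinase-like protein, stood among the falls with the largest ratio to their error, with 171, 190 and 200 CPM without and 53.9, 54.6 and 52.3 with Asp.

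Some genes moved with Asp without a difference between HT-DNA+AOA and HT-DNA. Among 4647 genes within 0.2 log2 units and not called in that comparison, 727 rose and 714 fell with Asp. These are smaller shares than the 28.3% higher and 26.4% lower over all genes. At least 2-fold, 8 rose and 7 fell, against 3.36% and 4.76% of all genes. The set was defined with the same HT-DNA+AOA libraries that enter the comparison with Asp. Angptl4, an inhibitor of lipoprotein lipase, had 61.0, 75.0 and 71.6 CPM without and 37.7, 40.2 and 39.0 with Asp, against 73.7, 72.3 and 68.2 under HT-DNA alone. It fell by 0.83 ± 0.07 on the log2 scale (SE, edgeR adjusted p = 4.43e-09). Cdk19, a kinase of the Mediator complex, had 8.12, 7.80 and 7.27 CPM without and 12, 14 and 12.1 with Asp, against 8.98, 7.96 and 8.5 under HT-DNA alone and 25.2 to 26.4 in mock. It rose by 0.71. Vamp1, a vesicle fusion protein, rose by 0.68. Entpd4, a nucleotide phosphatase, had 13.9, 20.5 and 31.4 CPM without and 6.88, 7.96 and 10.3 with Asp, and its call at an edgeR adjusted p of 0.0393 was lost under 8 of the other settings.

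Genes for making ribosomes fell slightly. Of 44 ribosome biogenesis genes 33 fell (75.0%, against 26.4% of all genes) and 4 rose, with a median log2 fold change of -0.21. Rrs1, an assembly factor of the large subunit, fell by 1.25 and Nop56, a core protein of box C/D small nucleolar particles, by 0.96. Of 40 cytosolic ribosomal proteins 29 fell (72.5%) and none rose, with a median of -0.21 and a lowest value of -0.41 at Rpl3. With library size alone as the scale the ribosomal count was 19.

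In the metabolic lists, shares are to be read against 28.3% higher and 26.4% lower over all genes. In glycolysis and HIF targets 15 of 37 rose (40.5%) and 13 fell (35.1%), with Pfkfb4, a regulator of glycolytic flux, rising by 1.22 on the log2 scale and Ndrg1, a stress-induced gene, falling by 0.87. In the TCA cycle list 13 of 29 fell (44.8%) and 8 rose (27.6%), all by less than 2-fold. Glul, which makes glutamine, had 150, 159 and 157 CPM without and 114, 114 and 119 with Asp (log2 fold change -0.43). In the NRF2 and glutathione list 16 of 28 rose (57.1%) and 5 fell (17.9%). Pgd, an enzyme of the pentose phosphate pathway, had 138, 127 and 128 CPM without and 345, 342 and 347 with Asp, a log2 fold change of 1.40 ± 0.04 (SE, edgeR adjusted p = 1.22e-15). Hmox1, haem oxygenase, fell by 0.59. Of 13 mitochondrially encoded transcripts 2 rose and 2 fell, but 4 rose without replicate 2 of HT-DNA+AOA and 1 with only both groups in the fit. One of them, mt-Co3, a subunit of cytochrome oxidase, had 71.0, 92.5 and 114 CPM without and 394, 273 and 151 with Asp, a wide spread within each group (log2 fold change 1.55 ± 0.36, SE, edgeR adjusted p = 0.00582).

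Fibroblast markers were present in part. Vim, Col1a1, Col1a2 and Pdgfrb had over 1000 counts in every library, while Thy1 had at most 5 counts and Dcn at most 5, and 10 of 28 fibroblast markers were too low to test. Of the 18 tested, 10 rose (55.6%, against 28.3% of all genes) and 3 fell with Asp. Col1a2, a collagen chain, rose by 1.21, Pdgfrb, a growth factor receptor, by 0.94, and Fn1, fibronectin, fell by 0.81 on the log2 scale. Of 8 endothelial and 8 epithelial markers 2 each could be tested, and 0 passed by edgeR, DESeq2 or limma-voom or at an unadjusted p under 0.05. Epcam had at most 2 counts in a library.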

How the data were processed

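The RNA of 12 L929 libraries, 4 groups of 3, was total RNA extracted in TRIzol, as the labels state. The authors deposited estimated counts per gene, made from the reads by a counting step that they do not name, and 14.4 to 16.6% of values were not whole. For aligner, counter, strand setting and build, the sources used here give nothing, so reads of antisense or overlapping genes cannot be told apart. The authors' gene lengths and group means were not used. Of 56287 entries, 26710 had no count. Counts were rounded, filtered with filterByExpr (minimum count 10, minimum total 15), scaled by TMM (factors 0.954 to 1.05) and fitted over all 12 libraries with edgeR 4.0.16 in R 4.3.3, with 1 term per group, 8 residual degrees of freedom and robust quasi-likelihood tests. Adjustment was by Benjamini-Hochberg over 14694 genes, and genes were called under 0.05. SE were derived from the test, as the absolute log2 fold change divided by the square root of its F statistic. Libraries held 19944571 to 27309291 counts, so 3 counts stand for 0.11 to 0.15 CPM, a limit from counting error only. Within a group no pair of libraries agreed within sampling noise (chi-square per degree of freedom 2.15 to 7.96). On simulated counts (14454 genes) 71.7% of 99 genes changed 1.5-fold and 81.6% of 98 genes changed 2-fold were called, and 0.0842% of unchanged genes. Few genes were changed there, while 54.7% were called in the data. The adjusted p depends on that share, so these rates cannot be carried over to the data.

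Named genes came from called genes whose groups did not overlap and whose higher group averaged at least 5 CPM. They were the 10 largest rises and falls, the 5 with the largest ratio to SE each way, the 5 each way within 0.2 log2 units and not called for AOA, the 5 each way outside all 9 other libraries, up to 4 of each gene list and up to 2 against its direction. To these came 20 chosen whatever their values. Other list members named were chosen after their values were seen. Some genes belong to more than 1 list, such as Usp18, Slc7a11 and Hspa4l, so the shares of different lists are not independent. The comparison, the lists and the rules were chosen with earlier results of these data known. Alternatives were DESeq2 1.42.0, limma-voom (limma 3.58.1), other scalings, filters and fits, a replicate block and leaving out each of the 6 libraries. Some items are not reported here.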

Additional observations from a re-analysis of the deposited data

How the results depend on the processing

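Over 9 other settings, genes called higher with Asp numbered 3816 to 4841 (4164 as reported) and genes called lower 3209 to 4009 (3873), and with 1 library left out 3817 to 4091 and 3528 to 3753. No direction of a named gene reversed, and 177 of 185 named genes with a fit kept their side of the threshold under all 15 alternatives. The others were Entpd4, Lgals3bp, Srebf2, mt-Nd1, mt-Co1, Snhg14, Nfat5 and Atf4. With library size alone as the scale, 60.1% of calls were higher, against 51.8%, and the median of all genes moved by 0.059 on the log2 scale, and 19 ribosomal proteins fell, against 29. Mitochondrially encoded transcripts that rose numbered 2 as reported, 1 with only both groups in the fit, and 2 to 4 with 1 library left out, the 4 without HT-DNA+AOA replicate 2. Canonical histone genes that rose numbered 0 as reported and 0 to 1 with 1 library left out, the 1 without HT-DNA+AOA replicate 1; at an unadjusted p under 0.05, and by DESeq2 and limma-voom, the number was 0. The cause of these shifts was not tested. The other list counts stayed within 1.5 times their reported value. Replicate numbers did not pair the libraries: same-numbered libraries of both groups deviated with correlations of -0.0144, -0.0287 and -0.00684, and 0 of 6 correlated best with their own number. A replicate block gave 4044 genes higher and 3737 lower. Below 1 CPM 21.8% of genes were called, and a gene not called there may differ by more than this depth can show.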

Other observations

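Shares of further gene groups are to be read against 28.3% higher and 26.4% lower over all genes. Hosts of small nucleolar RNAs and other nuclear noncoding RNAs fell at 14 of 20 members (70%) and rose at 3, with a median log2 fold change of -0.47. Snhg12 fell by 1.17 and Gas5, whose spliced product is degraded quickly when translation is active, by 0.69. Neat1, the scaffold of paraspeckles, had a log2 fold change of -0.28 that did not pass and was 1.13 above HT-DNA alone, and Malat1 fell by 0.56 and was 0.47 above it. Of 8 members (against 10.4% of all genes) higher than under HT-DNA alone, these 2 were chosen after their values were seen.

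Of 45 lysosome and autophagy genes 17 rose (37.8%) and 16 fell (35.6%). Ulk1, the kinase that starts autophagy, rose by 1.04 on the log2 scale, and Map1lc3a, a membrane marker of autophagosomes, fell by 1.06. Against HT-DNA alone 11 members (against 10.4% of all genes) were higher with AOA and Asp by edgeR and 0 were lower (1 at an unadjusted p under 0.05, 0 by DESeq2 or limma-voom). Of 23 heat shock chaperones 13 rose (56.5%) and 7 fell (30.4%). Hspa1b, a heat-inducible chaperone whose reads may be shared with its near-identical copy Hspa1a, rose by 1.25, Hspa8, its constitutive relative, by 0.94, and Hspa9, the mitochondrial form, fell by 0.38. Of 30 cell death genes 12 rose (40%) and 10 fell (33.3%), Casp9 rising by 0.88 and Casp4, a caspase that senses bacterial lipopolysaccharide, falling by 1.21. Of 7 canonical histone genes 0 passed by edgeR, DESeq2 or limma-voom, or at an unadjusted p under 0.05.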
